A study of Chlamydomonas reinhardtii with 4 samples.

Results

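The comparison described here set cells of the green alga Chlamydomonas reinhardtii that had been without nitrogen for 48 h against cells of the same strain before starvation (0 h), on 1 Agilent 2-colour array. Of the 43671 probes that carry the number of a gene model and a slot (1 to 3), 26860 were well above background in the starved channel, the 0 h channel or both, and these probes were kept. They stood for 12386 of the 14557 gene models on the array, of which 3272 had 1 kept probe, 3754 had 2 and 5360 had 3. The value of a model was the median over its kept probes of the log2 ratio of the starved (Cy5) signal over the 0 h (Cy3) signal, so that a positive value means a higher signal in the starved cells. All RNA came from strain wt cc3491, grown in acetate medium (TAP) to early stationary phase for 0 h, then washed and kept in TAP without nitrogen under constant light for 24, 48, 72 or 96 h. Values at other times are medians over the probes kept at both 24 and 48 h. Each of the 4 starvation times has 1 array, every array carries 0 h RNA in the other channel, the RNA was pooled from several cultures, and the dyes were not swapped. No value therefore has an error between cultures and no test was possible. A model was called changed at 2-fold or more, the spread of its probes stands as a technical check only, and any dye effect cannot be told apart from starvation. The samples are a single strain of a unicellular alga, so no cell type markers apply.

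Chlamydomonas cells that run out of nitrogen first turn to other nitrogen sources: transporters and reductases for nitrate and nitrite, ammonium transporters and glutamine synthetase bring inorganic nitrogen into glutamine, and amino acid oxidases release it from organic compounds. The nitrogen held in the photosynthetic apparatus is reused, chlorophyll is lost, growth and division stop, and storage lipid and starch accumulate. In the absence of nitrogen the cells also differentiate into gametes.

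At 48 h, 1623 models (13.1%) were at least 2-fold higher and 1055 models (8.52%) at least 2-fold lower in starved cells than at 0 h. The highest values of named genes belonged to nitrogen transport and assimilation: GLN3, AMT4 and NAR2 stood between 57.1-fold and 63.0-fold above 0 h. Model 192090, which carries no name here, was at least 62.8-fold higher. At the other end were the flagella membrane glycoprotein gene FMG1-B, FEA1, the gene of a secreted protein assimilating iron, and several models without a name. Compared with 24 h, the highest nitrogen genes and most antenna genes stayed far from the 0 h level, models of chlorophyll synthesis and of the plastid ribosome had come back towards the 0 h level, and cyclin B copies, 1 histone gene and the flagella glycoprotein gene had gone further down.

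Most called models lay near the line. Between 2-fold and 4-fold were 1395 higher and 717 lower models, and 604 higher and 232 lower ones were within a log2 ratio of 0.20 beyond it; the models just inside it stood at 1.0 and -1.0. At a log2 ratio of 5 or more in size there were 9 higher and 14 lower models. A dim 0 h channel bears on the higher models in particular: 853 of the 1623 (52.6%) had no probe well above background at 0 h, so that they entered through the starved channel alone. Their 0 h level was thus not measured. Such entry did not fix the direction: 3624 of all measured models had no such probe at 0 h, and 37 of them were called lower. In mirror image, 13 of the 1055 lower models had no probe well above background in starved cells. Where only probes well above background in both channels were used, 692 of 8742 models (7.92%) were higher and 1114 (12.7%) lower. The median of all models was 0.20, and with the array centred on this median the calls were 41.8% higher, against 60.6% higher as deposited. After a new background correction and loess the higher models made up 37.7% of the calls, and without the filter on dim probes 32.3%. Which direction held more calls thus depended on these settings, while of the named models past 2-fold 1, AOT7, changed sign under any of them.

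**Figure D1:**
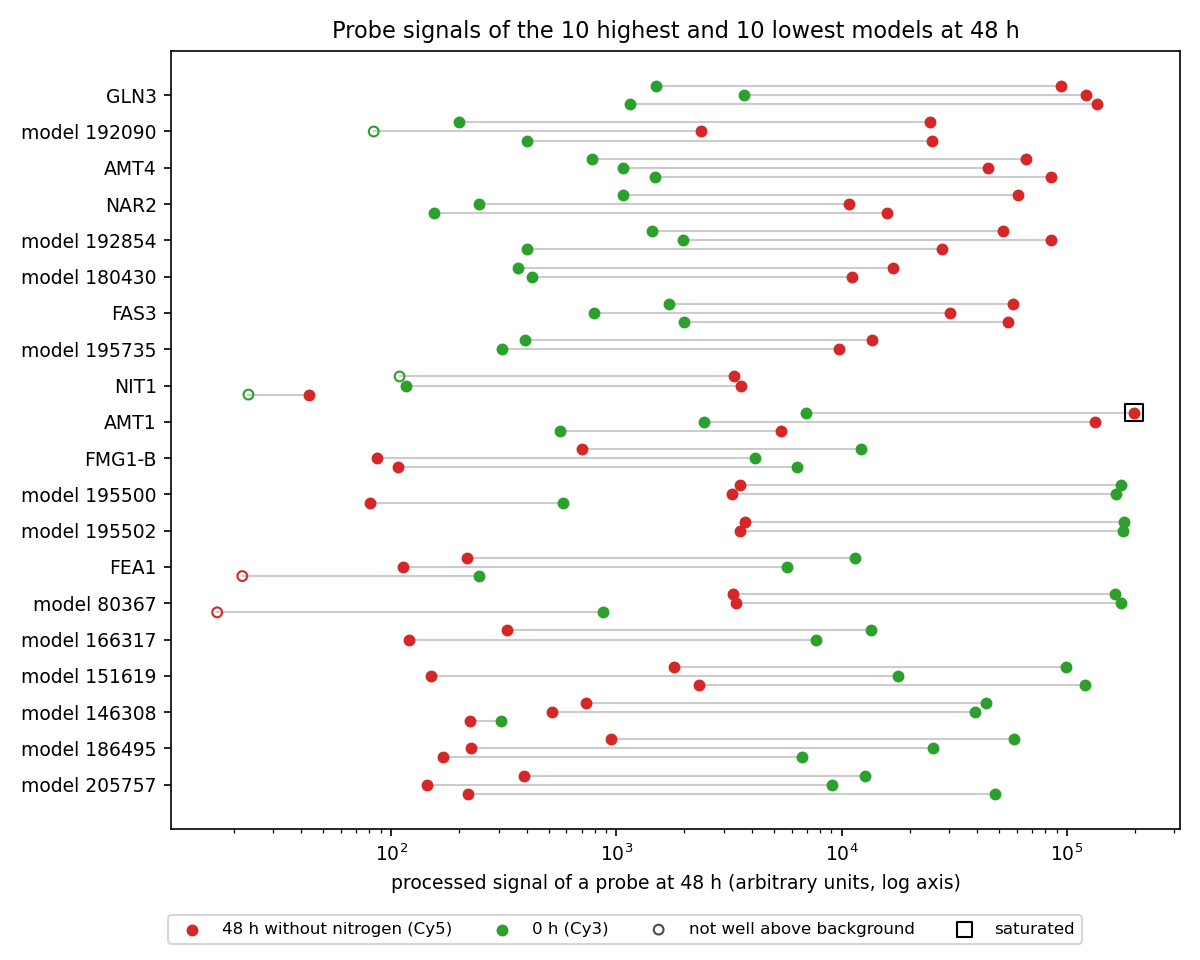
Signals at 48 h of the 10 highest and the 10 lowest models, on a log axis of scanner units. Models were chosen with at least 2 kept probes, all of the same sign, and at least 1 probe well above background in both channels. Each probe's starved and 0 h signal is a pair of points, and models without a gene name are given by number. By this choice every starved probe lies above its 0 h partner in the 10 highest models and below it in the 10 lowest. AMT1 has 1 saturated probe.

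Genes for the uptake of ammonium and for its assimilation into glutamine were the highest named group, and their level at 48 h was close to that at 24 h. Of 5 measured models 4 were higher and none lower, with a median log2 ratio of 4.83, against 0.20 over all models, of which 13.1% were higher and 8.52% lower. This and the other gene groups were taken from names in the study's tables, which list models that the study chose as changed. Their counts beside the share of all models are therefore no independent evidence. The glutamine synthetase gene GLN3 (model 136895) had starved signals of 94514, 121987 and 135810 units in its 3 probes, against 1499, 3684 and 1150 units at 0 h. All 3 probes were thus far apart between the channels, and the model was 63.0-fold higher, with probe values between 5.05 and 6.88. Its log2 ratios were 6.10, 5.98, 5.83 and 5.79 at 24, 48, 72 and 96 h. AMT4 (model 156131), an ammonium transporter gene, had 65639, 44836 and 85214 units in starved cells, against 781, 1065 and 1478 units at 0 h. It was 57.7-fold higher, and its log2 ratios of 6.0, 5.85, 5.70 and 5.71 at the 4 times differed by less than its probes did at 48 h (5.40 to 6.39). A second ammonium transporter gene, AMT1 (model 158745), was at least 28.4-fold higher, a bound because 1 starved probe was saturated. For the other listed glutamine synthetase genes less can be said. GLN1 (model 133971) stood at 1.21 with 1 saturated starved probe, and was within 2-fold (0.93) after background correction and loess. GLN2 (model 129468) was saturated in all 3 probes in both channels, so that no fold can be given.

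The nitrate pathway was nearly as high. Its genes cover the steps from the transport of nitrate through nitrate reductase (NIT1) and nitrite reductase (NII1) to the regulator NIT2. Of 8 measured models 6 were higher and 1 lower, beside 13.1% and 8.52% of all models. The median log2 ratio was 3.43 at 48 h and 3.68 at 24 h. In all 8 the median difference of the shared probes from 24 to 48 h was below 0, though only -0.003 for NAR2. After the median shift of each channel, the starved channel was lower at 48 h in NII1, NIT2, NAR1.3 and THB1. In NIT1, model 188890, NAR2 and FDX2 it was higher, and the 0 h channel was higher by more. NAR2 (model 184660), a partner of the nitrate transporters, had 60880, 10769 and 15822 units in starved cells, against 1067, 246 and 155 units at 0 h. This was a 57.1-fold difference, and the log2 ratios at 24, 48, 72 and 96 h were 5.86, 5.83, 5.25 and 5.31. NII1 (model 192085) had 47011 and 52085 units in starved cells, against 2041 and 2294 units at 0 h, with both probes at 4.51 and 4.53. The 22.9-fold difference had been a log2 ratio of 4.69 at 24 h and was 4.16 and 4.40 at 72 and 96 h. NIT1 (model 184661) was dim at 0 h in 2 of its 3 probes, and its log2 ratio was at least 4.91. Its log2 ratios of 4.32, 4.93, 4.18 and 4.90 over the 4 times rest on probes that ranged between 0.89 and 4.94. The median rose from 24 to 48 h while the probes differed by -0.75 to 0.62, with a median difference of -0.68. Model 188890, described as an NADH nitrate reductase, was at least 14.9-fold higher, with 2 probes dim at 0 h. NIT2 (model 205647) was moderately higher at 1.44, against 1.65 at 24 h.

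In the RefSeq order of loci, which was matched to the models by their older locus numbers, NII1, model 192088, model 192090, NAR2 and NIT1 are 5 neighbours. Model 192088 had no probe well above background. Model 192090 carries no name in the tables used here and was the second highest of the models shown in the plot of signals, at least 62.8-fold higher, with log2 ratios of 6.48, 5.97, 6.05 and 5.72 at 24, 48, 72 and 96 h. The paper reports the locus with the number matched to this model as its most highly expressed nitrate transporter. All 4 measured models of this stretch were therefore high at 48 h.

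Some models of the nitrate group did not follow it. The ferredoxin gene FDX2 (model 159161), whose product can pass electrons to nitrite reductase, stood at 2.95, but 2 probes were dim at 0 h, the bound was at least 1.93-fold, and the value was 0.88 after background correction and loess. NAR1.3 (model 194337), described as a formate and nitrite transporter, was within 2-fold at -0.48. The gene of truncated hemoglobin 1, THB1 (model 81856), was the only lower model of the group. Its 3 probes had 154, 132 and 47.4 units in starved cells, against 342, 297 and 116 units at 0 h. Its log2 ratios were 0.62, -1.17, -1.60 and -1.66 at 24, 48, 72 and 96 h, a change of sign after 24 h in signals that are low in both channels, and after background correction and loess the 48 h value was -0.46.

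Genes for the use of organic nitrogen were higher in 3 of 4 measured models, beside 13.1% of all models. LAO1 (model 184080), which encodes an L-amino acid oxidase that frees ammonium outside the cell, was at least 12.4-fold higher, with log2 ratios of 3.67, 3.63, 3.03 and 2.91 at the 4 times. The gene of the cationic amino acid transporter AOC5 (model 205770) stood at 2.89, with both probes between 2.84 and 2.93. The amino acid transporter gene AOT2 (model 206109) stood at 0.04, while AOT7 (model 186772) had 1 dim probe, with a value of 1.34. With the 0 h signal set to the lowest detected one the value was -0.92, and without the filter on dim probes it was -0.50, so no bound on a rise can be given. In the group for nitrogen starvation, gametogenesis and mating, MTA4 (model 185335), so named in the study's tables, was at 1.25 and close to its 24 h value of 1.43. Whether it marks gametes was not tested. RWP4 (model 195838), described as an RWP-RK transcription factor, was at 2.78, against 1.52 at 24 h, but 2 of its probes were dim at 0 h and its bound was at least 1.56-fold, and background correction and loess brought it to 0.85.

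Light-harvesting antenna genes were the lowest named group. These encode the proteins that bind chlorophyll around photosystem I (LHCA) and photosystem II (LHCB and LHCBM). Of 10 measured models 9 were lower and none higher, beside 8.52% and 13.1% of all models. The median log2 ratio was -3.07, and 7 of the 10 stood below their 24 h value, a count that rests in part on saturated probes. Many of these folds are lower bounds, because 7 models had a saturated probe in the bright 0 h channel. LHCBM4 (model 191690) was at least 24.2-fold lower, and at -4.83, -4.59, -4.76 and -4.59 it had reached its low level by 24 h.

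LHCBM5 (model 184775) moved between the first 2 times. It had 9075, 5121 and 9.30 units in starved cells, against 132913, 108998 and 271 units at 0 h, with the faint slot 3 probe not well above background in starved cells. It was at least 14.6-fold lower at 48 h, and its log2 ratios were -2.72, -4.41, -4.21 and -4.29 at 24, 48, 72 and 96 h. LHCB5 (model 184397) had log2 ratios of -3.87, -3.59, -2.63 and -2.37 at the 4 times. All 3 of its probes were saturated at 0 h, so that its values do not rank the times. Among the photosystem I antenna genes, LHCA5 (model 186299) was at least 10.2-fold lower, with -2.99, -3.34, -2.47 and -2.92 at the 4 times, and LHCA8 (model 187025) at least 7.57-fold, with -2.45, -2.92, -2.21 and -2.31. LHCA1 (model 184471) was at least 5.97-fold lower, with -1.81, -2.58, -1.50 and -1.78, and LHCA7 (model 183363) at least 4.86-fold, with -1.37, -2.28, -1.19 and -1.78. All 4 had 2 of 3 probes saturated at 0 h, so that these values do not rank the times. The unsaturated probe of LHCA7 was at -2.65, -2.60, -2.12 and -2.23 at the 4 times. LHCBM9 (model 184479) was the exception of the group, dim at 0 h in both probes and at -0.36.

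Genes of the photosystems, the cytochrome complex and the plastid ATP synthase were lower too, but less so. Of 10 measured models 7 were lower, beside 8.52% of all models, with a median of -1.67 at 48 h, against -1.71 at 24 h. PSBX (model 182015), a small subunit of photosystem II with no saturated probe, was at -3.09. The photosystem I genes PSAH (model 182959) and PSAK (model 192478) were both at least 4.99-fold lower. PSAO (model 193847), a further photosystem I subunit, had 2 probes saturated at 0 h, so that its log2 ratios of -0.61, -2.0, -1.91 and -2.36 at the 4 times understate the decrease. Its only unsaturated probe was at -3.06, -3.96, -3.87 and -4.37. ATPD (model 132678), the delta subunit of the ATP synthase, stood at -1.83, against -2.88 at 24 h. The value of the gamma subunit gene ATPC (model 134235), -1.51, covers probes from -3.05 to 0.16 and was -0.68 without slot 1. CYC6 (model 193170), for cytochrome c6, was at -1.20 and within 2-fold (-0.64) after background correction and loess.

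PETO (model 185971), a subunit bound to the cytochrome b6f complex, was nearer to 0 h than at 24 h, as were 6 of the 10 models of the group by the median difference of their probes. It had 38319, 1886 and 3071 units in starved cells, against 67747, 3874 and 5889 units at 0 h, and its log2 ratio was -0.94 at 48 h, against -2.39 at 24 h. The later values were -1.16 and -1.52. The genes of light stress proteins were split. LHCSR3 (model 184730) and LHCSR2 (model 184731), whose products dissipate excess light, were at least 12.8-fold and at least 12.2-fold higher, and both were higher at each later time, LHCSR3 with 3.28, 3.96, 4.30 and 4.37 at 24, 48, 72 and 96 h over its shared probes (3.68 over all 3 at 48 h) and LHCSR2 with 2.65, 3.61, 3.73 and 4.21. LHCSR1 (model 184724), PSBS2 (model 171516) and ELI3 (model 148916) were within 2-fold at -0.89, -0.66 and -0.39.

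**Figure D2:**
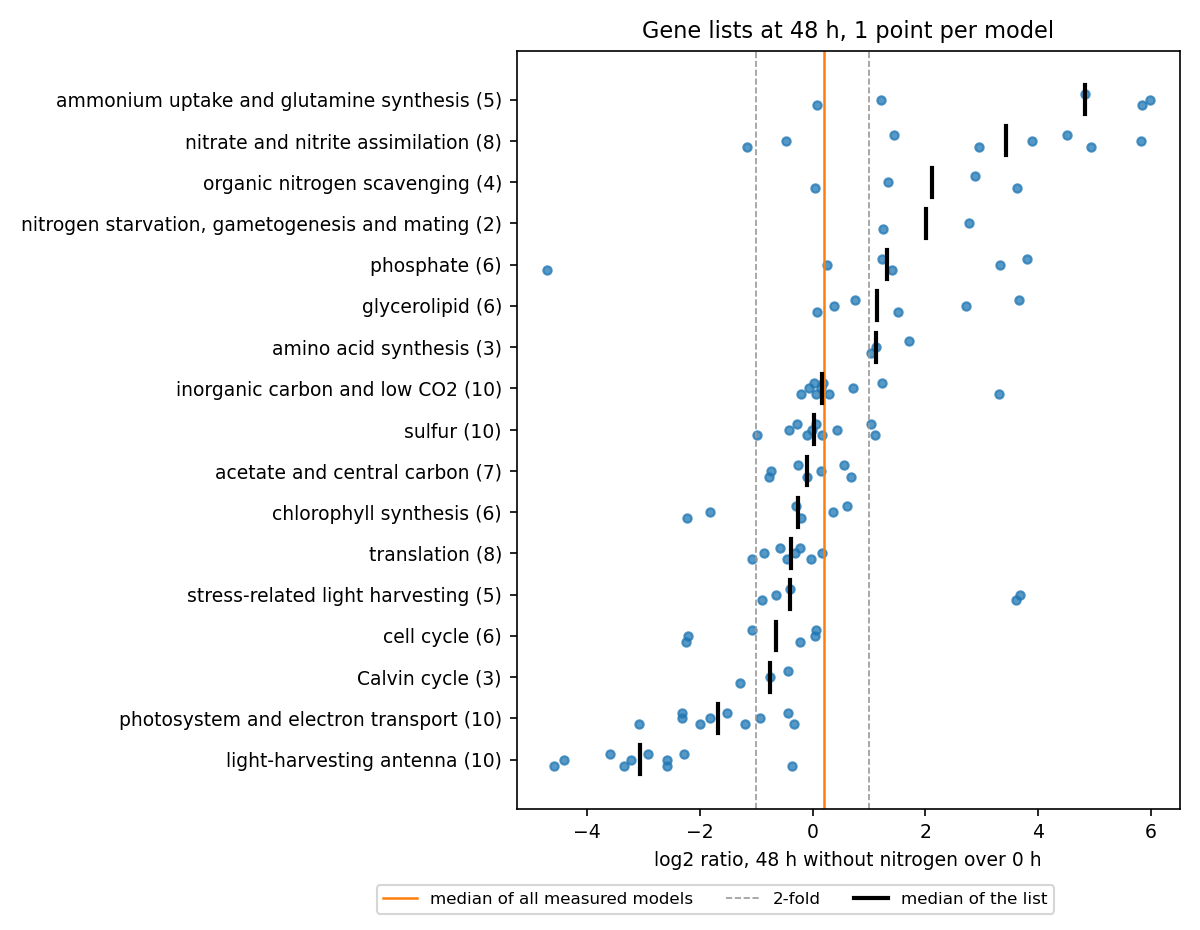
Median log2 ratio over 0 h at 48 h of each of the 17 gene groups as a black bar, with 1 point a model, the number of measured models in brackets, the 2-fold lines dashed and the median of all models (0.20) as a coloured line. The ammonium and nitrate groups are at the high end (4.83 and 3.43) and the antenna group at the low end (-3.07).

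The median of the chlorophyll synthesis genes was low at 24 h and near the 0 h level at 48 h, but the members were split. CRD1 and CHLM were lower at both times, while CPX1 and GUN4 were within 2-fold at both. The median was -0.25 at 48 h and -2.30 at 24 h. At 48 h 2 of 6 models were lower, against 4 at 24 h, beside 8.52% and 10.2% of all models, and all 6 stood above their 24 h value. The later medians were -0.38 and 0.34. GSA (model 138524), the glutamate semialdehyde aminotransferase of the first committed steps, had 22805, 448 and 25356 units in starved cells, against 28055, 483 and 33121 units at 0 h. Its log2 ratios were -2.65, -0.30, -0.69 and 0.33 at 24, 48, 72 and 96 h. The move between the first 2 times lay in the starved channel, which was 2.14 higher on the log2 scale on the 48 h array, while the 0 h channel differed by -0.08, each after its median shift. PBGD1 (model 194475), porphobilinogen deaminase, had a similar course of -1.96, -0.21, -0.07 and 0.35, although its slot 3 probe went the other way between 24 and 48 h. CRD1 (model 183476), a subunit of the cyclase that makes the isocyclic ring, moved least, with -2.70, -2.23, -2.12 and -2.30. CPX1 (model 53583), coproporphyrinogen oxidase, was above its 0 h level at 0.61 at 48 h, against -0.54 at 24 h, both within 2-fold. GUN4 (model 205773), described as a tetrapyrrole-binding protein, had -0.24, 0.365, 0.38 and 1.25 at 24, 48, 72 and 96 h.

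CHLM (model 195575), the methyltransferase that acts on magnesium protoporphyrin, has 3 probes that do not overlap. Their sequences are shown because each one gives a separate measurement of the direction of the move.
CHLM slot 1: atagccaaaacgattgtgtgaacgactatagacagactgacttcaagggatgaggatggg
CHLM slot 2: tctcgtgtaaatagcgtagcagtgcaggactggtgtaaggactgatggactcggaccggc
CHLM slot 3: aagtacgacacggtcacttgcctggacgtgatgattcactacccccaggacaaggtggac
The 3 probes had 3647, 892 and 48.3 units in starved cells, against 13424, 2801 and 170 units at 0 h. Slot 1 gave a log2 ratio of -1.88 at 48 h, against -2.89 at 24 h, slot 2 gave -1.65, against -3.08, and slot 3 gave -1.81, against -4.15. All 3 were thus nearer to 0 than at 24 h, and the model had -3.08, -1.81, -2.26 and -0.79 at the 4 times. Slot 3 was faint, with 48.3 units in starved cells at 48 h, and its log2 ratio was lower still at 24 h. It gives the direction of the move and not its size.

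The median of the genes of the translation machinery was also nearer to 0 h than at 24 h. Of 8 measured models 1 was lower at 48 h and 6 at 24 h, beside 8.52% and 10.2% of all models, the median was -0.38 at 48 h and -2.08 at 24 h, all 8 were above their 24 h value and 5 of them by 2-fold or more with at least 2 agreeing probes. Among them are proteins of the large subunit of the plastid ribosome. PRPL31 (model 195624) had log2 ratios of -2.23, -0.31, -0.19 and 0.56 at 24, 48, 72 and 96 h, PRPL29 (model 187195) had -1.92, -0.23, -0.31 and 0.38, and PRPL7/L12 (model 99271) had -2.59, -0.57, -0.28 and 0.38, the last with a slot 3 probe that went the other way. A subunit of the cytosolic initiation factor 3, EIF3K (model 140593), had 707, 1202 and 4463 units in starved cells, against 1282, 2255 and 7085 units at 0 h. Its log2 ratio was -0.86 at 48 h and -2.55 at 24 h, so that all 3 probes were again nearer to 0 h. EIF3B (model 128636), another subunit, remained past the line at -1.08, against -3.06 at 24 h, but was at -0.24 after background correction and loess. Its starved signals at 24 h were only 22.5 and 14.3 units, below the smallest detected starved signal of the 48 h array (30.4 units). The size of its move is therefore uncertain. EIF2G (model 126673) and EIF2Ab (model 114912), described as initiation factors, were within 2-fold at both times. EIF2G was at -0.08 at 24 h and 0.16 at 48 h, with 2 probes dim at 0 h and a shift of -0.31 in the 0 h channel. EIF2Ab was at -0.63 and -0.46, and its 2 shared probes moved in opposite directions. The Calvin cycle genes showed smaller moves in the same direction: GAP3 (model 129019) was at -0.43, against -1.54 at 24 h, and PRK1 (model 195910), phosphoribulokinase, was at -1.28, against -1.86, with a probe range of -1.34 to -0.08 and 1 probe saturated in both channels.

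A pair of cyclin B copies went down at every time. Their names come from a gene table of the study whose names are shifted in part, so they are given with that reserve. CYCB1.a (model 195433) had 10753 and 9708 units in starved cells, against 51050 and 46222 units at 0 h, and CYCB1.b (model 195434) had 11305 and 9741 units, against 51924 and 45790 units. The log2 ratios of CYCB1.a were -0.62, -2.25, -3.23 and -4.69 at 24, 48, 72 and 96 h and those of CYCB1.b were -0.65, -2.22, -3.27 and -4.78. Their probes are shown because the same 3 sequences serve both models, with the bases shared by slots 1 and 2 in capitals.
CYCB1.a and CYCB1.b slot 1: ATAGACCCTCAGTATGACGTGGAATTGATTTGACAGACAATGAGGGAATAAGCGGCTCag
CYCB1.a and CYCB1.b slot 2: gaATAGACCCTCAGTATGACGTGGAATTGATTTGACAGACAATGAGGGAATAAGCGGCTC
CYCB1.a and CYCB1.b slot 3: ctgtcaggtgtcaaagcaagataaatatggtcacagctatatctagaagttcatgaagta
Slots 1 and 2 share 58 bases and slot 3 was not well above background, so both models rest on close to 1 target stretch, and their transcripts cannot be told apart. ALK2 (model 145741), an aurora-like kinase gene measured by 1 probe, followed with 0.06, -1.07, -2.36 and -2.85. The other cell cycle genes stayed near 0 at 48 h, with APC10 (model 134900) at -0.23, APC2 (model 187751) at 0.06 and RFC2 (model 185418) at 0.05. Of 6 measured models of the group 3 were lower at 48 h and none at 24 h, beside 8.52% and 10.2% of all models. These 3 are the cyclin B copies, which share their probes, and ALK2, so they are fewer than 3 separate measurements.

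Histone genes were low at both times. The study's tables describe 28 measured models as histones, 27 of them H2B, and since these tables list models that the study chose as changed, their direction is no independent evidence. Of the 27 H2B models 23 were lower at 48 h and all 27 at 24 h, beside 8.52% and 10.2% of all models. Their values lay between -3.66 and -0.74 at 48 h. These are near-identical copies that can share signal, so their number is uncertain. HTB10 (model 112775) stood apart from them. It had 301, 234 and 636 units in starved cells, against 3810, 3235 and 2880 units at 0 h, and was the lowest H2B model, with log2 ratios of -2.06, -3.66, -4.31 and -4.77 at the 4 times.

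Models described as flagella proteins were lower in 11 of 18 measured cases, beside 8.52% of all models, with a median of -1.23 at 48 h. The same limit on their choice holds. FAP138 (model 190644) was lowest, with log2 ratios of -3.11, -3.15, -0.52 and -2.73 at 24, 48, 72 and 96 h, and FAP7 (model 147217) had -2.05, -2.18, 0.32 and -1.88. The median of the group was 0.42 at 72 h and -1.04 at 96 h, so that the 72 h array stood apart from the times on both sides of it. PF16 (model 103782), a protein of the central pair of microtubules, was at -1.15 at 48 h, against -2.90 at 24 h, on 1 probe. FMG1-B (model 158519), the major glycoprotein of the flagella membrane, had 703, 86.6 and 107.2 units in starved cells, against 12214, 4142 and 6335 units at 0 h. It was 47.8-fold lower, and its log2 ratios were -3.14, -5.58, -5.67 and -5.25, a further decrease by 48 h that then held.

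The phosphate genes included both directions. PTA3 (model 183357), a putative proton and phosphate symporter gene, had 479, 361 and 122 units in starved cells, against 12587, 10900 and 616 units at 0 h. It was 26.3-fold lower, with log2 ratios of -3.24, -4.72, -4.64 and -4.61 at 24, 48, 72 and 96 h. Its probes are shown because slot 2 lies wholly within slot 1 (shared bases in capitals) and gives almost the same ratio, while slot 3 gives a smaller one.
PTA3 slot 1: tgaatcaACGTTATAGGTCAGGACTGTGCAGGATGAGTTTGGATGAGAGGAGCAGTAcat
PTA3 slot 2: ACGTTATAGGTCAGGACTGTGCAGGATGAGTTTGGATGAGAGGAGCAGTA
PTA3 slot 3: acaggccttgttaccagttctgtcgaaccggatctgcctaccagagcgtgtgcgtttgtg
Slot 1 was at -4.72, slot 2 at -4.92 and slot 3 at -2.33 at 48 h, against -3.24, -3.37 and -1.88 at 24 h, so that the size of the fold depends on the stretch probed and its direction does not. PTB2 (model 196464), a putative sodium and phosphate symporter gene, went up. It had 2233, 1275 and 1556 units in starved cells, against 948, 556 and 667 units at 0 h, and its log2 ratios were -0.63, 1.22, 2.38 and 0.52 at the 4 times. Background correction and loess brought the 48 h value just under the line, to 0.97. PSR1 (model 196473), the regulator of the response to phosphate shortage, was at least 8.58-fold higher, with 4.01 at 24 h and 3.80 at 48 h. Of 6 measured models of the group 4 were higher and 1 lower, beside 13.1% and 8.52% of all models. Over the probes kept at both times these were 3 and 1, against 1 and 1 at 24 h. The call that depends on the probes is PTB5 (model 196438), at 3.33 over 3 probes, of which 2 were dim at 0 h, and at 0.72, against 0.11 at 24 h, in the only probe measured in both channels. PTB3 (model 196465), at 1.41 with both probes dim at 0 h, had a bound of at least 1.80-fold and a value of 0.38 after background correction and loess.

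FAS3 (model 36709), described as a fasciclin-like protein, a kind of surface adhesion protein, moved further up among the 10 highest models. It had 57636, 30194 and 54553 units in starved cells, against 1704, 797 and 1994 units at 0 h, and was 33.8-fold higher. Its log2 ratios were 3.05, 5.08, 4.71 and 4.87 at 24, 48, 72 and 96 h, and between the first 2 arrays the starved channel differed by 2.54 on the log2 scale, beside 0.69 in the 0 h channel. GSTS1 (model 193661), a glutathione S-transferase, had 7503, 10390 and 130 units in starved cells, against 3187, 4450 and 27.0 units at 0 h, with the last probe dim at 0 h. It was at -0.18, 1.24, 2.02 and 0.92 at the 4 times, so it crossed the line by 48 h. All 3 measured models of amino acid synthesis were higher at 48 h, beside 13.1% of all models. AGK1 (model 78991), described as acetylglutamate kinase-like, had 1.63, 1.72, 0.76 and 1.06 at the 4 times. AST2 (model 146923), an aspartate aminotransferase, had 0.77, 1.12, 0.73 and 1.37, and OTA1 (model 195386), an ornithine transaminase, had -0.23, 1.04, 1.88 and 1.45. AST2 and OTA1 lie just past the line and came to 0.92 and 0.67 after background correction and loess.

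Genes of glycerolipid synthesis and turnover were higher in 3 of 6 measured models, beside 13.1% of all models, and all 6 stood above their 24 h value. GPD1 (model 146945), glycerol 3-phosphate dehydrogenase, which makes the backbone of glycerolipids, had 182786, 45136 and 11474 units in starved cells, against 4953, 3944 and 911 units at 0 h. It was 12.6-fold higher, and its log2 ratios of 3.46, 3.65, 3.82 and 3.95 were higher at each later time by steps smaller than the range of its probes (3.52 to 5.21). A predicted lipase (model 191373) was at 2.73, against 2.17 at 24 h, and FAT1 (model 196283), an acyl carrier protein thioesterase, at 1.52, against 1.25. SQD1 (model 27658), TGD1 (model 83) and FAD5D (model 205999) were within 2-fold at 0.08, 0.39 and 0.75.

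**Figure D3:**
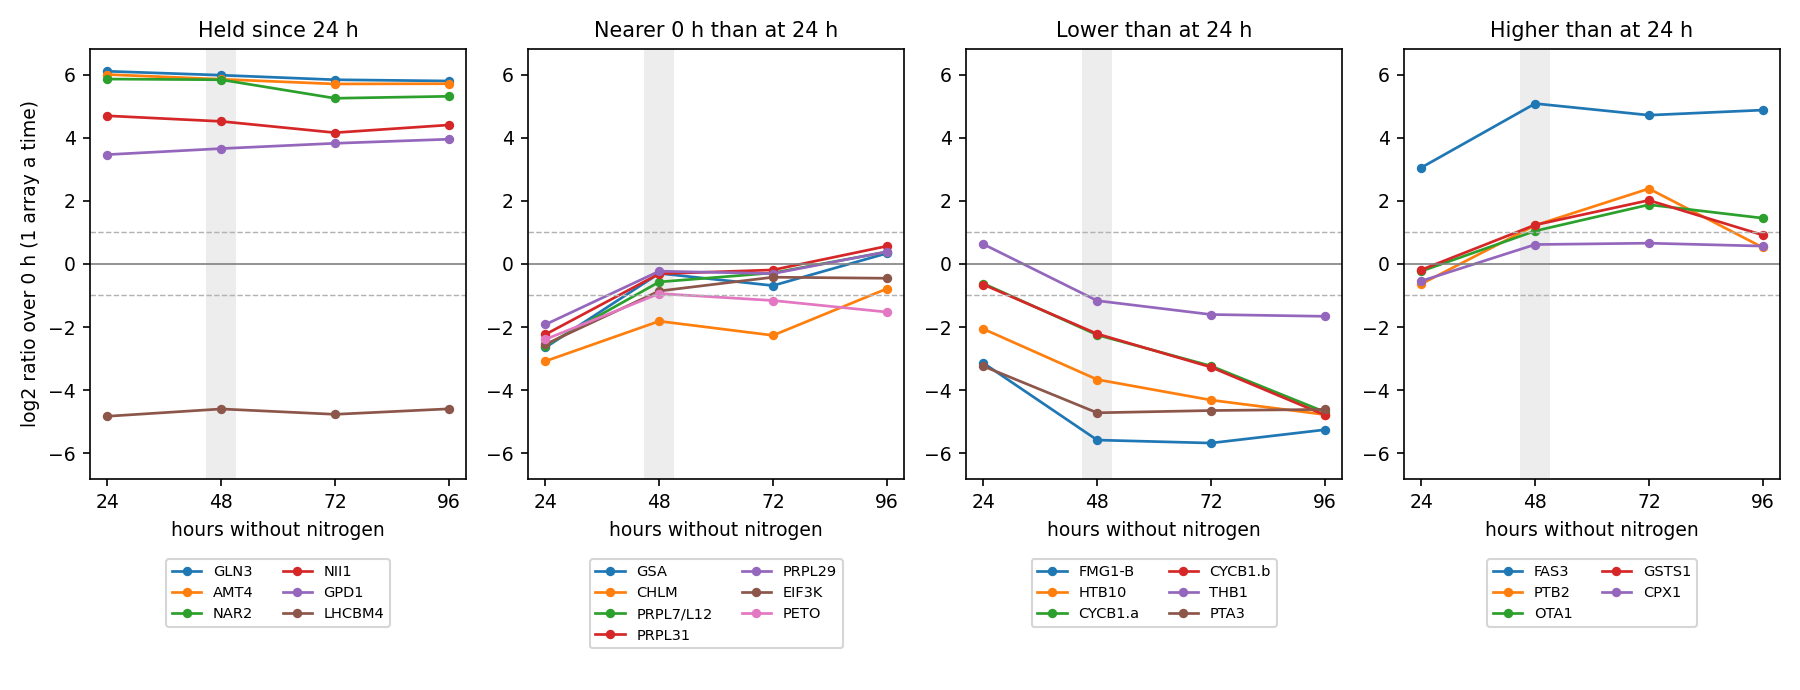
Log2 ratio over 0 h at 24, 48, 72 and 96 h of named models in 4 panels, chosen from the named models after their values were seen: held since 24 h, nearer to 0 h than at 24 h, lower than at 24 h, and higher than at 24 h. Each line joins the medians over the probes kept on both the 24 and 48 h arrays, with 1 array a time and the 2-fold lines dashed, and GLN3 and LHCBM4 mark the held extremes while GSA, CYCB1.a and FAS3 show the moves between 24 and 48 h.

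Other pathways had few calls at 48 h. The 7 models of acetate use and starch and sugar breakdown had none, beside 13.1% of all models higher and 8.52% lower. Their values lay between -0.78 for CIS2 (model 24263), a citrate synthase, and 0.68 for ADH1 (model 133318), an alcohol dehydrogenase. Saturation limits this group. CIS2 had 1 probe saturated at 0 h and others at -3.32 and -0.78, both channels were saturated in 2 of the 3 probes of ICL1 (model 191668), isocitrate lyase, and ADH1 had 1 saturated and 1 dim probe. Of 10 measured sulfur models 2 were higher, beside 13.1% of all models. SABC (model 134449) was at 1.04, and at 0.84 with median centring. ECP76 (model 130684) was at 1.12 with both probes dim at 0 h, and at -0.48 with the 0 h signal set to the lowest detected one, so its direction is not fixed. The median of the low CO2 genes was higher at the later times, but the members were split. Of 10 measured models 2 were higher at 48 h, beside 13.1% of all models. The median of the group was 0.52, 0.17, 1.13 and 2.67 at 24, 48, 72 and 96 h. NAR1.2 (model 135648), a bicarbonate transporter gene of the plastid envelope, was at least 7.09-fold higher at 48 h, with 2.52, 3.32, 3.57 and 5.29 at the 4 times. HLA3 (model 134058), a bicarbonate transporter gene of the plasma membrane, had -0.26, -0.06, 1.72 and 3.14, where the 48 h value is the middle of a measured probe at -1.83 and a probe dim at 0 h at 1.71. LCR1 (model 205566), a regulator of low CO2 genes, had 0.46, 0.07, 1.90 and 3.60. CCP1 (model 189430), CCP2 (model 128766) and LCI1 (model 55019) were also highest at 96 h. LCI28 (model 158244) was higher early, with 1.26, 1.24, 0.54 and 0.61, and LCI36 (model 182275) had -0.36, 0.15, -0.64 and -0.74. CAH1 (model 24120) and LCI33 (model 194325), each on 1 probe, stayed within 2-fold at all 4 times.

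Several of the most extreme models carry no gene name here. Models 192854, 180430 and 195735 stood at 5.43, 5.12 and 5.04 at 48 h, against 5.11, 5.59 and 4.92 at 24 h. Model 205513, described as an isochorismatase family protein, was at least 16.1-fold higher. On the lower side model 205757 had 387, 145 and 220 units in starved cells, against 12699, 9050 and 48021 units at 0 h, which made it the lowest of the models shown in the plot of signals, 62.6-fold below 0 h. Its log2 ratios were -5.48, -5.97, -6.12 and -6.21 at 24, 48, 72 and 96 h. The study's tables name it as an antenna gene, but its RefSeq locus is not the one known by that name, so it is given by number. FEA1 (model 129929) was at least 50.4-fold lower, with log2 ratios of -5.47, -5.66, -5.51 and -5.21 at the 4 times. Model 186495 was at -5.94 and model 151619 at -5.79, with all probes past -5. Model 146308 was at -5.89, although its slot 3 probe was at -0.45. RBD2 (model 174753), described as a rubredoxin, was at least 17.1-fold lower. Its value of -5.21, against -5.09 at 24 h, includes 1 probe dim in starved cells. The only probe measured in both channels was at -4.17. Models 195502 and 195500, at -5.62 and -5.61, have identical probes in 2 of 3 slots and cannot be told apart there.

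Between 24 and 48 h, 11326 models had a probe kept on both arrays and were compared over those shared probes. At both times 891 models were higher (7.87%) and 808 lower (7.13%). At 48 h but not at 24 h, 566 were higher (5.00%) and 260 lower (2.30%), and at 24 h but not at 48 h, 427 were higher (3.77%) and 343 lower (3.03%). After background correction and loess, 155 higher and 169 lower models were gained, and 76 higher and 214 lower models were lost. Which direction held more thus depended on the settings. Most crossings of the line were small. Of the 566 gained higher models 52, of the 260 gained lower 47, of the 427 lost higher 30 and of the 343 lost lower 85 moved by 2-fold or more with at least 2 probes agreeing. Models with a single shared probe cannot meet this rule. Without it, 168 of the gained higher and 68 of the gained lower models differed by 2-fold or more between the times. Of the lost models, 215 higher and 166 lower ones had been within 1.3 in log2 size at 24 h. Under the rule of agreeing probes, the lost lower models were the class with the largest share of 2-fold moves. Their median was -0.65 at 48 h and -1.31 at 24 h.

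The later arrays show what became of each class. The models higher at both times had medians of 1.58, 1.52, 1.32 and 1.46 at 24, 48, 72 and 96 h, and those lower at both times -1.66, -1.80, -1.58 and -1.72. The gained higher models had 0.57, 1.21, 0.76 and 0.97, with 270 of 566 past the line at 96 h. The gained lower models had -0.66, -1.22, -1.30 and -1.46, with 199 of 260 past the line at 96 h. The lost lower models stayed near 0, at -0.46 and -0.41 at 72 and 96 h, with 35 of 343 past the line again at 96 h, against 113 of the 427 lost higher models. Among named models, HSP22D (model 189779), a small heat shock protein gene, was lost on the higher side, with 1.33, -0.17, -1.67 and -3.06, and ELG7 (model 143550), described as an exostosin-like glycosyltransferase, was gained on the lower side, with -0.78, -2.31, -3.01 and -2.25, but was at -0.79 after background correction and loess.

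Of 7935 models with at least 2 shared probes, 202 (2.55%) moved up and 153 (1.93%) moved down by 2-fold or more between 24 and 48 h with agreeing probes. Those that moved up had medians of -0.97 at 24 h and 0.26 at 48 h; 100 of them were lower at 24 h and 15 at 48 h. Those that moved down had a median of -1.26 at 48 h and went on to -1.78 and -2.25 at 72 and 96 h, with 42 lower at 24 h and 89 at 48 h. Since the ratio of each array holds its own 0 h channel, the channels were also compared one by one. The starved channel moved more in 162 of the 202 and 123 of the 153 models. In the other 40 (19.8%) and 30 (19.6%) the 0 h channel moved more, and 30 and 17 of these had no probe above background in both channels. The median move of the starved channel was 1.09 in the models that moved up and -1.16 in those that moved down, beside -0.05 and 0.03 in the 0 h channel. Both channels were somewhat dimmer on the 48 h array, with median shifts of -0.17 (starved) and -0.20 (0 h). Of the 25 models at a log2 ratio of 4 or more with a shared probe above background in both channels, 16 had a higher 0 h signal on the 48 h array than on the 24 h array after that shift, with a median of 0.31 over the 25. For GLN3 that difference was -0.04, and the part of the 0 h channel in the ratios of the other models was not tested.

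**Figure D4:**
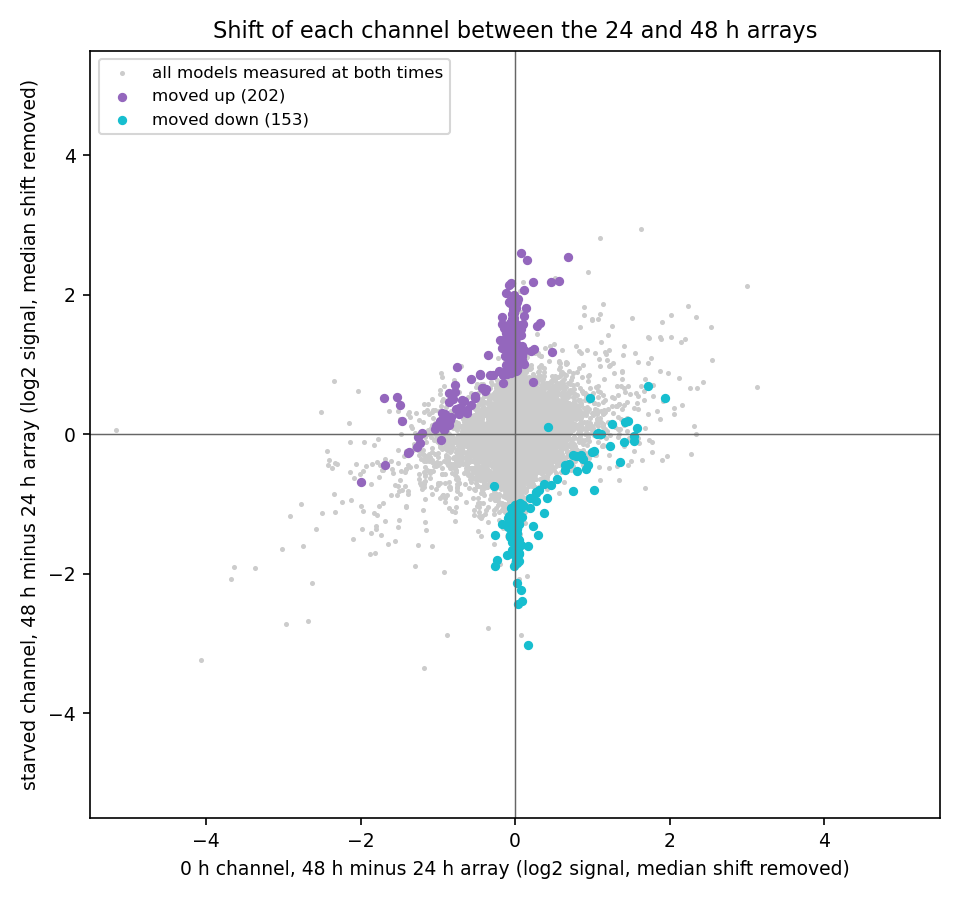
Change of the starved channel against change of the 0 h channel between the 24 and 48 h arrays, in log2 units after the median shift of each channel, 1 point a model, with models that moved up or down by 2-fold or more in colour. Coloured points spread mainly along the starved axis, and 40 of the 202 models that moved up and 30 of the 153 that moved down lie nearer the 0 h axis.

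The probes give the only repeat measurements of these ratios. Of the called models with at least 2 kept probes, 1012 of 1123 higher ones (90.1%) and 825 of 899 lower ones (91.8%) had all probes on the same side of 0, and 536 (47.7%) and 560 (62.3%) had all probes past 2-fold. Among the higher models this agreement rests in part on dim 0 h signals. Of all 1623 higher models, 853 had no probe well above background at 0 h, so that their ratios hold a 0 h level that was not measured. Slots of a model are not always separate measurements. Probe sequences were known for 1506 models, and slots 1 and 2 shared 30 or more bases in 625 of them (41.5%). The array repeats 16 probes on 7 spots each, and the 12 that were above background in both channels had an SD of the log2 ratio between 0.03 and 0.22, with a median of 0.08, against 0.30 to 0.67 for the 4 dimmer ones. In 49 sets of probes with identical sequence under different names, the log2 ratios within a set differed by 0.10 at the median and by 0.51 at most. The spot noise of a bright probe is thus well below the 2-fold line, and it says nothing of the spread between cultures.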

How the data were processed

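Arrays of oligonucleotide probes for the JGI 3.1 gene models were scanned and processed by the authors with Agilent Feature Extraction (version 10.7.3.1 in the submitters' processing notes), and the deposited intensity values are background-subtracted and dye-normalized signals of each spot. The series value table holds the authors' log10 ratios (Cy5 over Cy3) of the same arrays and served as an alternative. The authors pooled the RNA of biological replicates, and the sample labels give Cy5 as starved and Cy3 as 0 h. From the intensities the log2 ratio of each probe was computed, control spots were left out, and probes well above background in either channel were kept (Python 3.11.15, pandas 2.3.3, numpy 2.4.6, matplotlib 3.10.9). Differences between 24 and 48 h use the probes kept on both arrays. Class assignment was tested on simulated data. With 1 array a time no test was run. Where a probe was not well above background or was saturated in 1 channel, the fold is given as a bound, for which a dim channel took the larger of its own signal and the smallest detected signal of the array (30.4 units starved, 110.9 units 0 h). Alternatives were normexp (offset 50) with loess (span 0.3, 4 iterations) in limma 3.58.1 (R 4.3.3), median centring, other probe filters, slots left out and other fold limits.

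Models and gene groups were chosen with earlier results of these data known, so the counts of the groups are descriptive only. Named were the measured models of 17 gene lists (109 of 110), the 10 highest and 10 lowest models with agreeing probes, and the largest moved, kept, gained and lost models with a name. Names come from the study's gene tables. One of 3 tables differed from another in 18 of 45 shared symbols, and part of its names belong to the next entry, so its symbols were used only for models whose RefSeq locus is known by that name and, with reserve, for the cyclin B copies. The name of model 205757 was not used, since its RefSeq locus is another. The lists were corrected and reduced for this after values had been seen. RefSeq loci were matched for 12302 models by older locus number. Its assembly differs from that of the array, so no coordinates are given. Probe sequences come from the study's supplementary tables.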

Additional observations from a re-analysis of the deposited data

Results flagged for a closer look

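A few models, 3 in number, were past 2-fold in opposite directions at 48 and 24 h, a difference between times that was not tested. Model 143689 was at -1.42 at 48 h and 1.74 at 24 h, with both probes in the same direction but no probe above background in both channels, and at -2.60 and -2.08 at 72 and 96 h. Model 175429 was at 1.08 at 48 h and -4.19 at 24 h on 1 probe, and its 0 h channel differed by -5.16 on the log2 scale between the arrays. Model 94536 was at 1.02 at 48 h and -1.08 at 24 h, with a difference of -1.53 in its 0 h channel.

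The array also holds probes that carry a model number but no slot and enter no comparison above, and those of 6 models, above background in both channels on every spot, showed a signal past 2-fold at 48 h. Their mean log2 ratios at 48 h were -2.60 for model 168073, -4.93 for model 205752, -1.83 for model 132678 (ATPD), -1.14 for model 147968, -2.20 for model 152892 and -1.76 for model 195951. The mean for ATPD was close to the -1.83 of its probes with a slot. Whether these means differ from those at 24 h was not tested. A further model, 285889, was at 1.96 with its 3 spots above background in 1 channel only.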

How the results depend on the processing

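No paired analysis was possible because the labels carry no replicate numbers and each time has 1 array. Counts moved by over 1.5 times under these settings. With normexp and loess there were 452 higher models, 318 kept higher, 155 gained higher, 76 lost higher, 169 gained lower, 214 lost lower, 94 moved up and 65 moved down. Median centring gave 1013 higher and 360 gained higher models. With both channels well above background there were 692 higher, 485 kept higher, 214 gained higher and 133 lost higher models. With no filter on dim probes there were 928 higher, 1943 lower, 579 kept higher, 349 gained higher and 1201 gained lower models. Leaving out slot 2 gave 93 moved down, and models with 2 or more kept probes gave 327 gained higher and 220 lost higher. At 1.5-fold 3637 models were higher and 1917 lower, and at 4-fold 228 and 338. The authors' value table gave the same counts as the intensities. Leaving out the models whose 0 h channel moved more, an alternative chosen after seeing the data, left 162 moved up and 123 moved down. Of the 133 named models 76 were past 2-fold, and 58 of these were past it under every one of the 12 alternatives that gave a value. AOT7 (model 186772) was the 1 named value past 2-fold that turned, to -0.50 with no filter on dim probes, and values within 2-fold also crossed 0 under some settings, as those between 0 and 0.20 did with median centring. The cause of these moves was not tested, apart from the settings that test fewer models. Low signal at 0 h limits the folds of higher models, and saturation at 0 h limits those of the antenna genes.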

Other observations

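Models with neighbouring numbers around PRPL31 moved together between 24 and 48 h, a window of 10 model numbers on each side that was chosen after its values were seen. Of 19 models measured at both times, 16 moved up by 2-fold or more with agreeing probes. The median of the 19 was -0.26 at 48 h and -1.89 at 24 h, and their differences lay between 0.57 and 2.20, with a median of 1.62. Only PRPL31 of the 19 carries a name here, and a common function of the others was not tested.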
